A study of Mus musculus with 3 samples.

Results

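Transcripts of 32 genes of the endosomal sorting machinery were measured in sorted liver non-parenchymal cells: 10 genes of retromer and its sorting nexins, and 22 genes of the ESCRT complexes, the VPS4 ATPases and ALIX. They were chosen by gene symbol from the 31017 symbols of the deposited matrix, with earlier results of these data known. All 32 symbols were found, on 33 rows, because Hgs has 2 rows. The mice were Ai14 (LSL-Tomato), a reporter strain that makes a red fluorescent protein after Cre recombination, and all animals carried that allele. Livers were taken 3 h after animals received PBS, 20a-LNP or 20mix-LNP. The LNPs are lipid nanoparticles and carried 0.3 mg/kg Cre mRNA, and the study asks how particle stereochemistry bears on endocytosis and delivery. Each treatment had 1 droplet library. The matrix numbers its 3 libraries without naming their treatments, and the sources used here do not give the key, the animals' ages and number per library, or the sorted populations. No treatment is therefore compared, no test was run, and the values below are per cell class and per library.

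Endosomes send what a cell has taken up in opposite directions. Retromer, a trimer of VPS35, VPS26 and VPS29, works with sorting nexins to pull receptors into tubules that return to the cell surface or the Golgi. The ESCRT complexes act in sequence on ubiquitinated cargo and pinch it into vesicles inside the endosome, which carries it to the lysosome, and the same late machinery also cuts membranes in cell division, virus budding and repair. Sinusoidal endothelial cells, which line the liver capillaries, and Kupffer cells, the resident macrophages, are known as very active scavengers of blood-borne material.

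The 3 libraries held 6144949, 8754827 and 9211407 UMIs (unique molecular identifiers, each standing for 1 captured transcript) in 1211, 1701 and 1726 barcodes. After filtering, 3207 cells remained (755, 1110 and 1342), with a median of 5669 UMIs. Among these kept cells, each pair of libraries shared 1 barcode sequence. Cells were put in classes by lineage markers alone: a cell needed 4 or more UMIs from 2 or more markers of a class and 3 times as many as for any other class. This gave 891 sinusoidal endothelial-like, 200 Kupffer-like, 321 plasmacytoid dendritic-like (pDC-like), 127 monocyte-like and 542 NK/ILC1-like cells (natural killer cells or type 1 innate lymphoid cells), the 5 classes with 30 or more cells in every library. Conventional dendritic 1-like (76 cells), conventional dendritic 2-like (62), neutrophil-like (61) and T-like cells (63) are described only, and 817 cells stayed ungated. Cells with 4 or 5 marker UMIs, just inside the gate, numbered 37 of the endothelial-like, 4 of the Kupffer-like, 2 of the plasmacytoid, 9 of the monocyte-like and 67 of the NK/ILC1-like cells. The median UMIs per cell differed between these 5 classes and was 5703, 3128.5, 11061, 6262 and 6373.5 in the same order. Median UMIs of a class's own markers were 56, 42.5, 78, 15 and 12. Median UMIs of any other class's markers were 0, except for 8 UMIs of conventional dendritic 2 markers in pDC-like cells, 1 of monocyte markers in Kupffer-like cells and 1 of NK/ILC1 markers in T-like cells.

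Levels are counts per 1000000 UMIs of a class (CPM), with exact Poisson 95% intervals, and ratios between classes have exact 95% intervals. These intervals cover counting error only, so differences among animals, libraries and cells are outside them. Endothelial-like cells served as the common reference. Haemoglobin transcripts (4 genes) in them were at 12.6, 113 and 4835 CPM in libraries 1, 2 and 3, beside 10.0 to 155 CPM in the 4 other compared classes. Hepatocyte transcripts (12 genes) were at 246 CPM in them, 1081 in Kupffer-like, 113 in pDC-like, 199 in monocyte-like and 109 CPM in NK/ILC1-like cells. Their part in the results was not tested, beyond a denominator without these genes. The 4 comparisons share them, so they are given side by side and not as separate support for each other. A gene was called past 2-fold when its pooled ratio was 2 or more, or 0.5 or less, with 20 or more UMIs over both classes. Pooled sums weight each library by its UMIs in a class, so a pooled ratio can lie outside the range of its 3 library ratios.

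**Figure D1:**
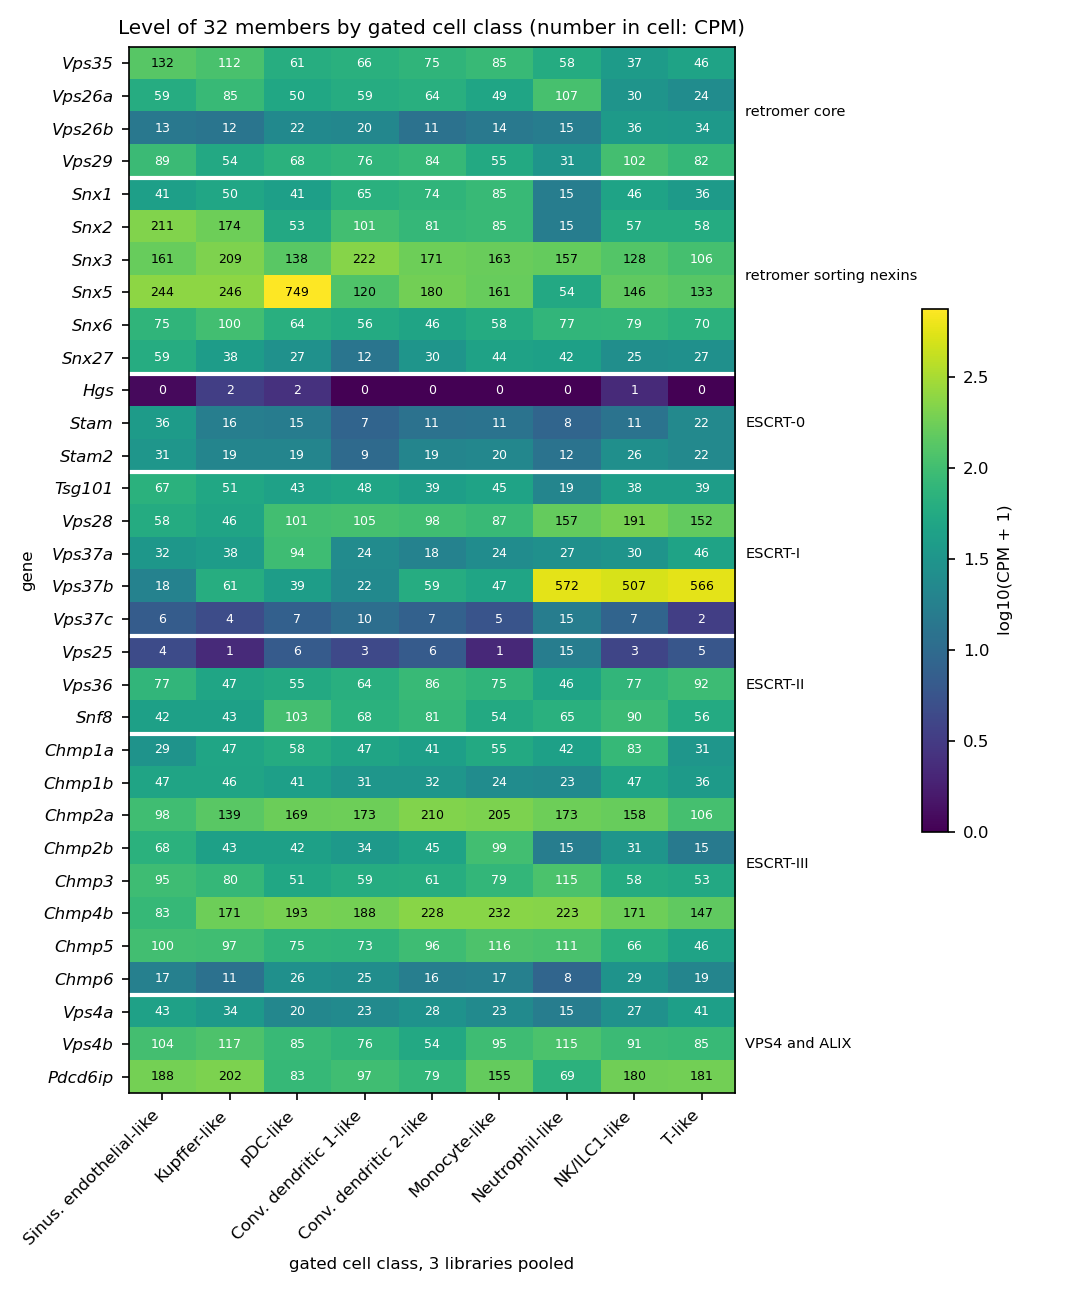
Level of the 32 members (rows, grouped by complex) in the 9 gated classes (columns, 3 libraries pooled); colour is log10(CPM + 1) and the number in each cell is CPM. Vps37b stands at 507 to 572 CPM in NK/ILC1-like, neutrophil-like and T-like cells, and Snx5 at 749 CPM in pDC-like cells.

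As a whole the machinery was carried at much the same level by every compared class, while single subunits and paralogs differed. The 32 members together took 2326 CPM in endothelial-like, 2395 in Kupffer-like, 2602 in pDC-like, 2267 in monocyte-like and 2611 in NK/ILC1-like cells. The ratios to endothelial-like cells were 1.03 (0.981 to 1.08), 1.12 (1.09 to 1.15), 0.975 (0.929 to 1.02) and 1.12 (1.09 to 1.15). The small excess in the lymphoid class came from 1 gene: without Vps37b, the NK/ILC1-like ratio was 0.911 (0.885 to 0.939), or 0.997 under TMM (trimmed-mean) scaling and 1.06 with a denominator free of mitochondrial, ribosomal, haemoglobin and hepatocyte genes (the reduced denominator). The excess of pDC-like cells likewise came to 0.879 (0.851 to 0.908) without Vps37b and Snx5, or 0.968 and 1.02 under those scalings. The monocyte-like ratio of all members lay above 1 under them (1.13 and 1.09). Scaling mattered because the TMM factors of the 4 classes relative to the reference were -0.26, -0.14, -0.21 and -0.13 on the log2 scale, in the order Kupffer, plasmacytoid, monocyte, NK/ILC1. Every ratio in those classes is higher by that amount under TMM.

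In Kupffer-like cells, 2 of the 30 members tested were 2-fold or more higher (Vps37b and Chmp4b) and 1 was lower (Stam), where 12.9% of all 10491 genes tested were higher and 36.7% lower. The median log2 ratio was -0.08 for the members and -0.54 for all genes tested. In pDC-like cells, 6 of 31 were higher (Snx5, Vps37a, Vps37b, Snf8, Chmp1a and Chmp4b) beside 20.2% of all genes, and 6 were lower (Vps35, Snx2, Snx27, Stam, Vps4a and Pdcd6ip) beside 33.3%. The medians were -0.23 for the members and -0.32 for all 11111 genes. In monocyte-like cells, 4 of 30 were higher (Snx1, Vps37b, Chmp2a and Chmp4b) beside 16.2% of all genes, and 2 were lower (Snx2 and Stam) beside 40%. The medians were -0.27 and -0.58 over 10574 genes. In NK/ILC1-like cells, 6 of 31 were higher (Vps26b, Vps28, Vps37b, Snf8, Chmp1a and Chmp4b) beside 19.6% of all genes, and 5 were lower (Vps35, Snx2, Snx27, Stam and Chmp2b) beside 31.1%. The medians were -0.10 and -0.25 over 11125 genes. The members' share of higher genes was not above the background in any class (6.67%, 19.4%, 13.3% and 19.4% in the order above). Their share of lower genes lay below it in all 4 (3.33%, 19.4%, 6.67% and 16.1% in the same order). The background was not matched to the members on level, so these gaps are not read as particular to the members.

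Over the 4 comparisons, 17 members passed 2-fold at least once, 10 of them only as higher and 7 only as lower. Another 14 passed in none, and Hgs had too few UMIs to be tested. Matching shares of all genes were not computed for the counts in this paragraph, so nothing particular to the members is read from them. All 32 called ratios lay on the same side of 1 in each of the 3 libraries. The calls were made on the pool of these same libraries, so this agreement is not separate support. Vps37b and Chmp4b were higher, and Stam lower, in all 4 comparisons, so the shared reference stood lowest of the 5 compared classes for the first pair and highest for Stam. Of the 32 ratios, 14 stayed past 2-fold under each of the 12 alternative settings tried: Vps37b in Kupffer-like cells, Snx2, Snx5, Vps37a, Snf8 and Chmp4b in pDC-like cells, Snx2 and Stam in monocyte-like cells, and Vps35, Vps26b, Snx2, Vps28, Vps37b and Chmp1a in NK/ILC1-like cells.

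**Figure D2:**
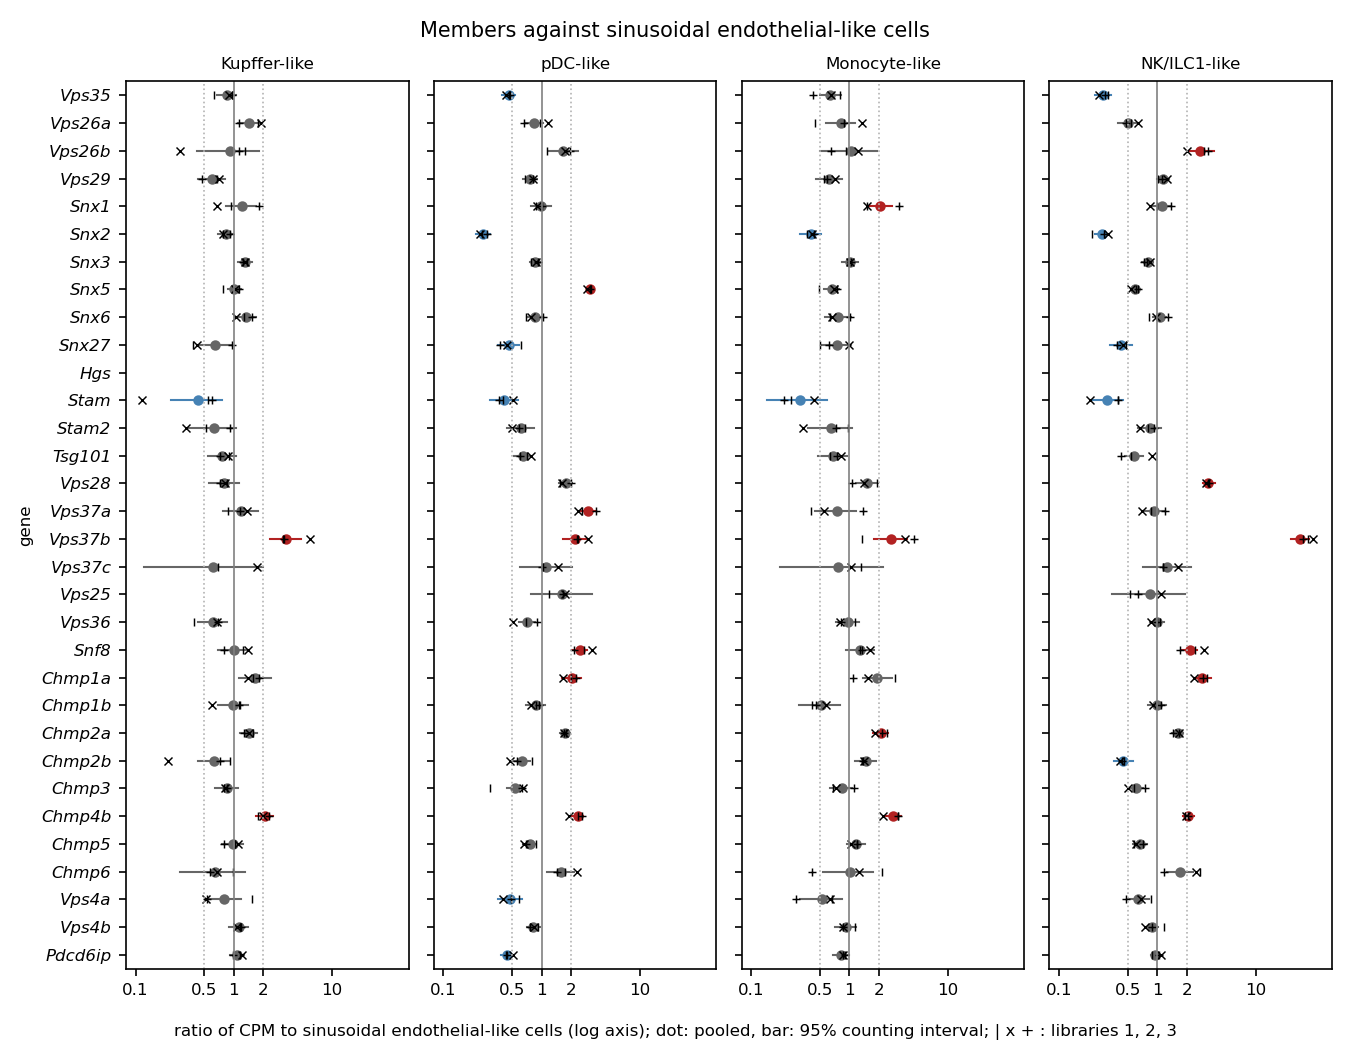
Ratio of CPM to endothelial-like cells for each member (rows) in 4 classes, on a log axis; dots are pooled ratios (red 2 or more, blue 0.5 or less), bars 95% counting intervals, and the black marks the 3 libraries, with library values of 0 not drawn. Most members sit between the dotted lines at 0.5 and 2, and Vps37b in NK/ILC1-like cells stands alone at 28.3.

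Promoter sequences are shown for Snx5, which had the highest level of any member, and for Chmp4b and Stam, which lay on opposite sides of the reference in every comparison. They come from RefSeq (GRCm38.p6), run from 250 bases before to 50 after the annotated start, and are written 5′ to 3′ on the gene's strand. That table has an entry for 23 of the 32 members. The 9 members without an entry are Vps37b, Vps35, Vps28, Vps37a, Snx2, Snx27, Snf8, Chmp1b and Chmp6. The Snx5 sequence is chr2:144270523-144270822 (minus strand), that of Chmp4b chr2:154656776-154657075 (plus strand) and that of Stam chr2:14073850-14074149 (plus strand). RefSeq and GENCODE M21 differ on some starts: the Snx5 and Chmp4b windows lie inside the GENCODE gene, so the GENCODE start is elsewhere. Capitals mark a GC box (GGGCGG).
Snx5: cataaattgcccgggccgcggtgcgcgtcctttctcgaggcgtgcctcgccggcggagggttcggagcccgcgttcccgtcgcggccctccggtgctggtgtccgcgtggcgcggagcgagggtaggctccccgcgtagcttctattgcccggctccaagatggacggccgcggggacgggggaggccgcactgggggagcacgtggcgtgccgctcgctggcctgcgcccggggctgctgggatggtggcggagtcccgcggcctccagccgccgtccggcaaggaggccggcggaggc
Chmp4b: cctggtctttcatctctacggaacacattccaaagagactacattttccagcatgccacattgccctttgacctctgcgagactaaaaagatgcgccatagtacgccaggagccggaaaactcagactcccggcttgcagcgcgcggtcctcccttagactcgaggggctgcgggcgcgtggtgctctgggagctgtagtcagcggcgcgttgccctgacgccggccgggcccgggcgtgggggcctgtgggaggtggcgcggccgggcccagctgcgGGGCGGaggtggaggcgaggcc
Stam: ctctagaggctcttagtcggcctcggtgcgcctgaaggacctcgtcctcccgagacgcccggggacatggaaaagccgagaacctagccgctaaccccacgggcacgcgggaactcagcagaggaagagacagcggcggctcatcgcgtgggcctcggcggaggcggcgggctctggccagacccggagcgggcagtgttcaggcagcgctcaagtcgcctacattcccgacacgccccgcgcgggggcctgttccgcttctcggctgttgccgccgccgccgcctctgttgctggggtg
All 3 are rich in G and C (75.7%, 65.7% and 69.7%, beside a median of 52.7% over 32851 promoters). Searched on both strands, the GC box was found for 13 of the 23 member genes and in 35.7% of all promoter entries. The 32851 entries belong to 27025 genes, so a count of genes stands here beside a share of entries. Of these 3 sequences only the Chmp4b one held a GC box, starting 29 bases after the start site. The cyclic AMP element TGACGTCA was found for 1 member gene (1.79% of all entries) and the AP-1 site TGANTCA for 1 (7.81%). The lysosomal CLEAR core GTCACGTG was found for 2 (2.25%) and the ETS site CCGGAAGT for 2 (3.89%). These are matches of letters in a short window and no evidence of binding.

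The retromer core was lower outside the endothelial-like class. Its 4 genes summed to 294 CPM in endothelial-like cells, 263 in Kupffer-like, 201 in pDC-like, 202 in monocyte-like and 205 in NK/ILC1-like cells. The ratios were 0.684 (0.623 to 0.751), 0.688 (0.586 to 0.804) and 0.698 (0.637 to 0.764) in the last 3 classes, below 1 in every library. The Kupffer-like ratio of 0.894 (0.771 to 1.03) was 1.07 under TMM scaling.

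Vps35, the scaffold that holds the trimer together, carried most of this in pDC-like and NK/ILC1-like cells. Its level was 138, 131 and 130 CPM in the endothelial-like cells of libraries 1, 2 and 3, 63.9, 57.5 and 61.9 CPM in the pDC-like cells and 43.4, 33.8 and 37.8 CPM in the NK/ILC1-like cells. The 3 classes did not overlap in any library. The pooled ratios were 0.461 (0.391 to 0.542) and 0.282 (0.231 to 0.342). Under TMM scaling and with the reduced denominator, the pDC-like ratio came to 0.51 and 0.54. Vps29, a subunit that recruits regulators, differed less in those 2 classes. Of the 5 compared classes, it stood lowest in Kupffer-like cells (53.5 CPM) and highest in NK/ILC1-like cells (102 CPM). Its ratio was 0.599 (0.429 to 0.817) in Kupffer-like cells, where that of Vps35 was 0.846 (0.673 to 1.05). In monocyte-like cells the ratios of Vps29 and Vps35 were 0.620 and 0.641.

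The arrestin-like subunit VPS26 has alternative paralogs, and their balance differed between classes. Vps26b stood at 12.6, 14.8 and 13 CPM in the endothelial-like class, beside 38.0, 29.8 and 43.1 CPM in the NK/ILC1-like cells, with no overlap. The ratio was 2.74 (2.01 to 3.75). Vps26a ran the other way, from 59 CPM in the endothelial-like to 29.8 CPM in the NK/ILC1-like class, without passing 2-fold. Vps26b made up 54.8% (47.9 to 61.4%, exact binomial interval) of the Vps26 UMIs in NK/ILC1-like cells and 58.3% (36.6 to 77.9%) in T-like cells. The share was 18.2% (14.4 to 22.5%) in endothelial-like, 12.5% in Kupffer-like and 30.6% in pDC-like cells. In each library the NK/ILC1-like share (53.8%, 51.2% and 59.0%) lay above that of all 4 other compared classes. Such a share does not depend on the scaling between classes, but capture can differ between genes, so only its change between classes is read.

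The sorting nexins differed in opposite ways. The 6 genes summed to 790 CPM in endothelial-like and 1073 CPM in pDC-like cells (ratio 1.36), a direction set by Snx5 alone. Without it the ratio was 0.592 (0.551 to 0.636). In monocyte-like and NK/ILC1-like cells the sums gave ratios of 0.752 (0.686 to 0.824) and 0.610 (0.575 to 0.646), below 1 in all 3 libraries, and in Kupffer-like cells 1.03.

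Snx5, a BAR-domain sorting nexin that binds cargo and helps shape tubules, had the highest level of any member in any single class, in pDC-like cells. It reached 773, 736 and 741 CPM in the pDC-like cells of the 3 libraries, beside 243, 257 and 241 CPM in the endothelial-like cells. The libraries agreed closely and the classes did not overlap. The ratio was 3.07 (2.86 to 3.29), past 2-fold under each alternative tried. The gene lies on chr2:144250123-144270906 of mm10 (minus strand), in GENCODE M21. The RefSeq promoter window printed above lies inside that interval, since RefSeq places the start further downstream. No other described class exceeded 246 CPM, the Kupffer-like level, and neutrophil-like cells had the lowest, 54 CPM. Of the Snx5 and Snx6 UMIs, Snx5 took 92.1% (91.0 to 93.1%) in pDC-like cells and 64.9% to 76.5% in the 4 other compared classes. Snx6, its close relative, stayed between 57.7 and 99.7 CPM across them.

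Snx2, which pairs with Snx5 or Snx6 to form the coat, showed the reverse. It stood at 240, 190 and 203 CPM in endothelial-like cells, 58.7, 44.7 and 56.5 CPM in pDC-like cells, 88.5, 79.9 and 88.9 CPM in monocyte-like cells and 51.6, 59.5 and 58.0 CPM in NK/ILC1-like cells. Each of these classes lay below the endothelial-like cells in every library. The ratios were 0.252 (0.213 to 0.297), 0.403 (0.314 to 0.509) and 0.272 (0.232 to 0.317). Kupffer-like cells, at 174 CPM, were close to the endothelial-like cells. Snx1, the paralog that can take its place, was 2.05-fold higher (1.55 to 2.68) in monocyte-like cells, but this rested on library 3 (114 against 35.9 CPM) and was 1.52 without it. Snx1 made up 16.4% (14.4 to 18.6%) of Snx1 and Snx2 UMIs in endothelial-like, 22.3% (16.5 to 29%) in Kupffer-like, 43.5% in pDC-like, 44.5% in NK/ILC1-like and 50% in monocyte-like cells.

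Among the adaptors, Snx27, whose PDZ domain links cargo to retromer, was lower in the pDC-like and NK/ILC1-like classes. Its level was 54.0, 59.4 and 61.3 CPM in endothelial-like, 33.0, 26.5 and 23.3 CPM in pDC-like and 25.8, 26.4 and 23.7 CPM in NK/ILC1-like cells. The ratios were 0.463 (0.360 to 0.590) and 0.429 (0.333 to 0.548), and the first rose to 0.527 without library 3. The NK/ILC1-like ratio was 0.59 with cells thinned to 1000 UMIs. Snx3, which brings retromer to early endosomes, stood between 128 CPM in NK/ILC1-like and 209 CPM in Kupffer-like cells among the compared classes.

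**Figure D3:**
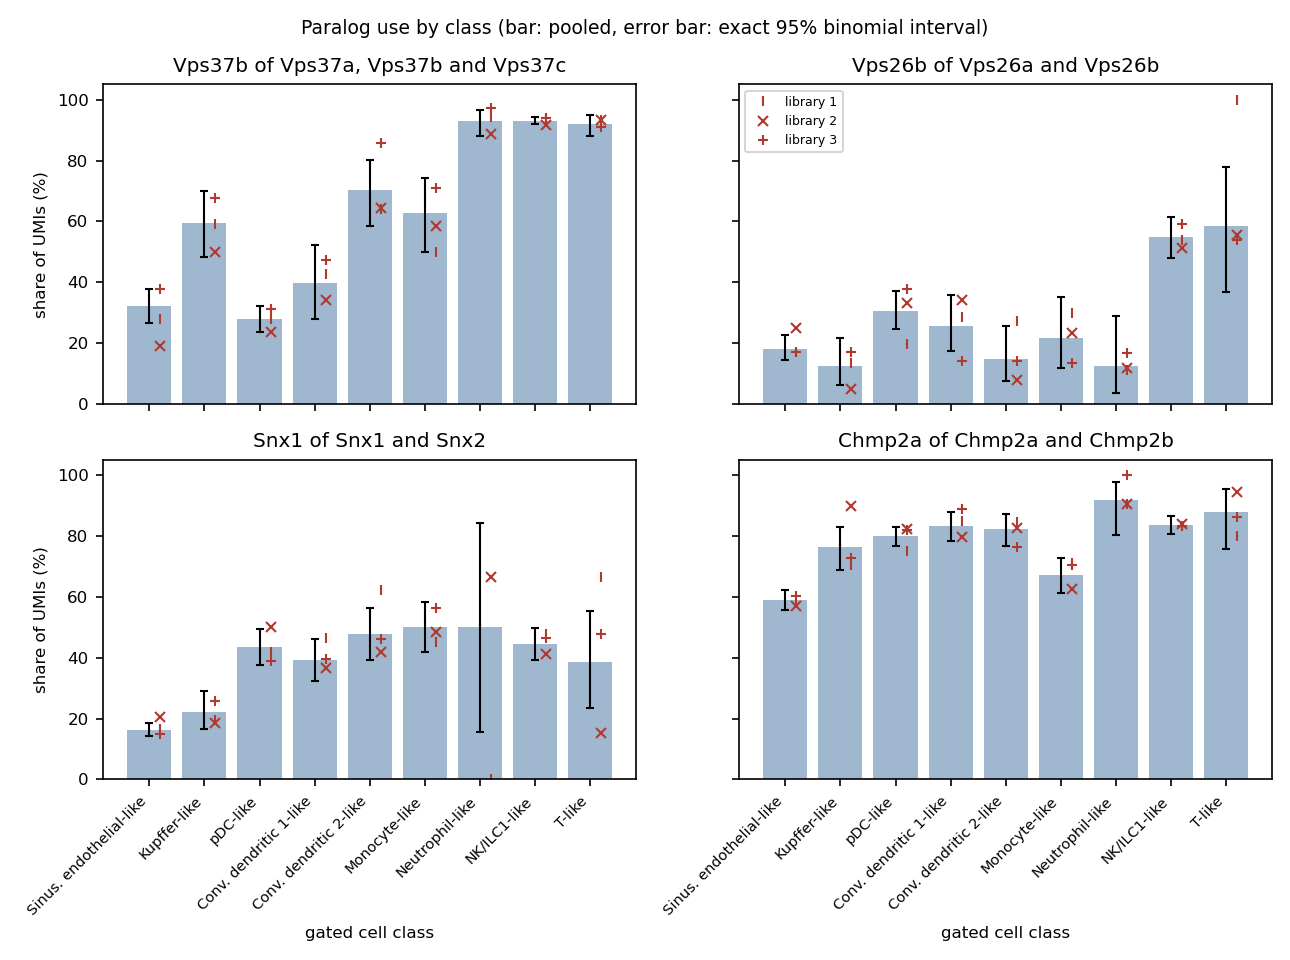
Share of UMIs (%) taken by 1 paralog among its close relatives in the 9 gated classes; bars are pooled, error bars exact 95% binomial intervals, red marks the 3 libraries. Vps37b takes 92.1% to 93.2% in NK/ILC1-like, neutrophil-like and T-like cells, and Vps26b exceeds Vps26a only in the NK/ILC1-like and T-like classes. The neutrophil-like and T-like shares of Vps26b and Snx1 rest on few UMIs.

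ESCRT-0, which recognises ubiquitinated cargo, was lower in all 4 classes than in the endothelial-like cells. The sums were 67.9 CPM in endothelial-like and 31.7 to 38.8 CPM in the other classes, with ratios of 0.555 (0.372 to 0.803) in Kupffer-like, 0.528 (0.423 to 0.654) in pDC-like, 0.466 (0.305 to 0.686) in monocyte-like and 0.571 (0.463 to 0.701) in NK/ILC1-like cells. Every library lay below 1, and the direction was the same under both other scalings. Stam, which partners HGS and binds ubiquitin, stood at 30.3, 35.9 and 39.4 CPM in endothelial-like cells. Lower values were found elsewhere, 12.2, 7.44 and 15.8 CPM in NK/ILC1-like, 12.4, 18.2 and 14.3 CPM in pDC-like, 7.69, 15.5 and 8.46 CPM in monocyte-like and 16.5, 4.21 and 23.4 CPM in Kupffer-like cells. None of these reached the endothelial-like level of its library. The ratios were 0.311 (0.214 to 0.443), 0.414 (0.295 to 0.572), 0.311 (0.146 to 0.584) and 0.434 (0.227 to 0.761) in the same order. The pDC-like value was 0.55 with up to 40% mitochondrial UMIs, and the NK/ILC1-like one 0.53 when thinned. The Kupffer-like value rested on 13 UMIs and came to 0.562 without library 2 and 0.52 under TMM scaling. Stam2, the paralog, was between 19.2 and 31.3 CPM in the 5 compared classes.

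Hgs, the central subunit of ESCRT-0, could not be measured. The annotation used by the files lists it under 2 identifiers that share 99.6% and 97.2% of their exon bases on the same strand (chr11:120467635-120483984), and the rows held 11 and 2 UMIs in all kept cells. How reads matching both models were counted was not tested, and the ESCRT-0 sum is in practice that of Stam and Stam2. Vps25 is in a similar place, with 67.2% of its exon bases shared with Ramp2, and had 79 UMIs in all kept cells. Of the other members, 29 share no exon base with another gene on their strand and Vps28 shares 3.69% with Tonsl.

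ESCRT-I, which takes over the cargo, held the largest difference. The 5 genes summed to 180 CPM in endothelial-like, 199 in Kupffer-like, 208 in monocyte-like, 283 in pDC-like and 775 CPM in NK/ILC1-like cells. The ratio of the last was 4.30 (3.99 to 4.64), and 1.65 (1.5 to 1.81) without Vps37b. In pDC-like cells it was 1.57 (1.43 to 1.73), and in Kupffer-like cells 1.11 (0.932 to 1.31), or 0.855 without Vps37b (1.02 under TMM).

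Vps37b encodes 1 of the alternative VPS37 subunits of the ESCRT-I stalk and lies on chr5:124004641-124032270 (minus strand). In the NK/ILC1-like cells of libraries 1, 2 and 3 it stood at 582, 380 and 624 CPM, beside 17.0, 9.90 and 20.5 CPM in the endothelial-like cells. Library 2 was the lowest in both classes, and the groups lay far apart. The ratio was 28.3 (22.9 to 35.4), with 34.2, 38.4 and 30.4 in the single libraries. The pooled value thus lay below all 3 library ratios, and its interval does not hold that of library 2. The 2 classes were spread differently over the libraries, with 223, 146 and 522 endothelial-like and 110, 241 and 191 NK/ILC1-like cells. Neutrophil-like cells held 572 CPM (484 to 671) and T-like cells 566 CPM (495 to 643), which do not differ from the NK/ILC1-like level of 507 CPM (483 to 532) beyond the spread between libraries. Kupffer-like cells followed at 60.8 CPM (45.1 to 80.2), conventional dendritic 2-like at 58.5 (43.7 to 76.7), monocyte-like at 47.5 (34.2 to 64.2) and pDC-like at 39.0 (32.4 to 46.5), neighbours whose intervals overlap. Conventional dendritic 1-like cells had 22.1 CPM (14.5 to 32.1) and the endothelial-like cells 17.9 (14.4 to 22.0). In fold, the dendritic-like, monocyte-like and Kupffer-like classes thus stood nearer to the endothelial-like class than to the lymphoid and neutrophil-like ones.

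The Kupffer-like ratio for Vps37b was 3.40 (2.36 to 4.85), from 53.6, 59.0 and 67.2 CPM by library. In monocyte-like cells it was 2.65 (1.79 to 3.86), from 23.1, 36.1 and 93.1 CPM, a spread wide enough that library 1 alone gave 1.36. In pDC-like cells it was 2.18 (1.65 to 2.88), from 40.2, 29.2 and 47.5 CPM. The monocyte-like and pDC-like values fell short under 2 further settings. With every cell thinned to 1000 UMIs they came to 1.49 and 1.06, and with cells weighted equally to 1.75 and 1.67.

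Among the VPS37 paralogs, Vps37b took 93.2% (91.9 to 94.3%) of UMIs in NK/ILC1-like, 93.1% in neutrophil-like and 92.1% in T-like cells. It took 32.2% (26.7 to 37.9%) in endothelial-like and 27.9% (23.7 to 32.3%) in pDC-like cells. In those, Vps37a was the leading paralog, with 57.2% and 67.4%. Vps37a was also higher in pDC-like cells in level, at 97.8, 86.7 and 98.6 CPM beside 37.7, 37.1 and 27.7 CPM in endothelial-like cells. No library overlapped, and the ratio was 2.96 (2.43 to 3.6). Vps37c was low throughout, from 3.65 to 7.46 CPM in the compared classes.

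Vps28, the subunit that links ESCRT-I to ESCRT-II, was 191, 192 and 191 CPM in NK/ILC1-like cells and 58.4, 61.9 and 56.1 CPM in endothelial-like cells. The libraries were nearly equal within each class. The ratio was 3.32 (2.89 to 3.83), and T-like and neutrophil-like cells, at 152 and 157 CPM, were also well above the endothelial-like level. Tsg101, the ubiquitin-binding core subunit, was in contrast highest of the compared classes in endothelial-like cells, at 66.7 CPM, and lowest in NK/ILC1-like cells, at 38.5 CPM, without passing 2-fold.

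ESCRT-II, the bridge to ESCRT-III, was 123 CPM in endothelial-like cells. Its ratios were 1.33 (1.18 to 1.5) in pDC-like and 1.38 (1.23 to 1.55) in NK/ILC1-like cells, and 0.740 (0.575 to 0.942) in Kupffer-like cells. Snf8 made the difference in both of the higher classes. It stood at 36.2, 33.4 and 47.6 CPM in endothelial-like cells, 98.9, 108 and 102 CPM in pDC-like cells and 86.8, 98.7 and 80.9 CPM in NK/ILC1-like cells. The endothelial-like values lay below the others in every library. The ratios were 2.44 (2.04 to 2.91) and 2.13 (1.78 to 2.55), the second 1.89 without library 2 and 1.58 when thinned. Vps36, which binds ubiquitin and the endosomal lipid, stayed between 47.4 and 77.3 CPM in the compared classes.

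ESCRT-III, whose CHMP proteins polymerise and cut the membrane neck, differed as a group mainly through Chmp4b, except in monocyte-like cells. The 8 genes summed to 536 CPM in endothelial-like, 635 in Kupffer-like, 656 in pDC-like, 828 in monocyte-like and 642 CPM in NK/ILC1-like cells. The ratios were 1.18 (1.08 to 1.30), 1.22 (1.16 to 1.30), 1.54 (1.42 to 1.68) and 1.2 (1.13 to 1.27), above 1 in every library and under both other scalings. Without Chmp4b they were 1.02 (0.915 to 1.14), 1.02 (0.958 to 1.09), 1.32 (1.19 to 1.45) and 1.04 (0.974 to 1.11). The 3 libraries then lay on both sides of 1 except in monocyte-like cells. These ratios also depended on scaling. Under TMM and the reduced denominator they were 1.23 and 1.07 in Kupffer-like and 1.13 and 1.19 in pDC-like cells. In monocyte-like cells they were 1.53 and 1.47, and in NK/ILC1-like cells 1.14 and 1.21.

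Chmp4b, the main building block of the ESCRT-III filament, was 82.1, 94.0 and 80.1 CPM in endothelial-like cells. In monocyte-like cells it was 254, 206 and 250 CPM, in pDC-like 193, 180 and 205 CPM, in Kupffer-like 144, 185 and 181 CPM and in NK/ILC1-like cells 156, 185 and 163 CPM. No value of those classes fell to the endothelial-like range. The ratios were 2.80 (2.36 to 3.31), 2.32 (2.05 to 2.64), 2.07 (1.70 to 2.51) and 2.07 (1.82 to 2.35). The last 2 sit at the threshold and fell under it in 4 of 12 alternatives each. The Kupffer-like ratio was 1.90 without library 3 and the NK/ILC1-like one 1.98 without library 2, and the monocyte-like one was 1.99 when thinned. The classes described only were high too, from 147 CPM in T-like to 228 CPM in conventional dendritic 2-like cells.

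Chmp2a, which caps and matures the filament, was 93.9, 103 and 98.6 CPM in endothelial-like and 227, 185 and 212 CPM in monocyte-like cells, a ratio of 2.09 (1.75 to 2.48), or 1.96 without library 1. Its paralog Chmp2b was instead lower in NK/ILC1-like cells, at 31.2, 32.5 and 28.1 CPM beside 68.1, 77.9 and 65.0 CPM. That ratio was 0.452 (0.360 to 0.565), and 0.53 with a reduced denominator. Chmp2a took 59.1% (55.7 to 62.4%) of the pair in endothelial-like cells, 67.3% (61.3 to 72.9%) in monocyte-like, 76.5% in Kupffer-like, 80.0% in pDC-like and 83.7% (80.6 to 86.5%) in NK/ILC1-like cells.

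Chmp1a, a late-acting regulator of the filament, was 28.9, 33.4 and 27.4 CPM in endothelial-like, 92.3, 79.8 and 80.0 CPM in NK/ILC1-like and 57.7, 55.6 and 61.9 CPM in pDC-like cells. The 3 classes did not overlap. The ratios were 2.88 (2.34 to 3.54) and 2.03 (1.63 to 2.54), the second 1.85 without library 3. Chmp1a took 38.1% (33.2 to 43.2%) of the Chmp1a and Chmp1b UMIs in endothelial-like and 64.0% (59.3 to 68.5%) in NK/ILC1-like cells. Of the other 4, Chmp1b, Chmp3, Chmp5 and Chmp6 passed 2-fold in no comparison. In the compared classes Chmp5 ranged from 66.2 to 116 CPM and Chmp3 from 50.9 to 95 CPM.

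The last group disassembles the filament and recruits it. VPS4 and ALIX genes together were lower in pDC-like cells, 189 beside 334 CPM, with a ratio of 0.565 (0.514 to 0.620). The ratios of 1.05 in Kupffer-like, 0.815 in monocyte-like and 0.891 in NK/ILC1-like cells were closer to 1, and the last was 1.04 with a reduced denominator. By library the NK/ILC1-like ratio was 0.963, 0.908 and 0.926, each above the pooled value. Pdcd6ip, which encodes ALIX, an adaptor that brings in ESCRT-III, was 210, 150 and 189 CPM in endothelial-like and 90.6, 75.7 and 84.3 CPM in pDC-like cells. The groups did not overlap, and the ratio was 0.443 (0.385 to 0.508), or 0.51 with a reduced denominator. Vps4a was 40.7, 40.8 and 44.2 beside 23.7, 16.4 and 21.5 CPM, a ratio of 0.478 (0.357 to 0.634) that missed 2-fold under 6 of the 12 alternatives (0.503 to 0.556). The paralog Vps4b, at 85.1 to 117 CPM, varied least of all tested members across the compared classes, 1.37-fold from lowest to highest.

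In all, 10 members kept within 2-fold from the lowest to the highest of the 5 compared classes. The matching share of all genes was not computed, so nothing particular to the members is read from this count. Hgs was tested in no comparison and Vps25 only in pDC-like and NK/ILC1-like cells, so 30 of the 32 members were tested in every one.

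Within NK/ILC1-like cells, Vps37b was set against Ifng, the interferon gamma gene, since both led the same group of cells in earlier results of these data. The values are therefore a description and not separate support for a link between the 2 genes. Vps37b was 616 CPM (548 to 690) in the 65 cells with 5 or more Ifng UMIs and 427 CPM (397 to 459) in the 307 cells with none, a ratio of 1.44 (1.26 to 1.65). By library the first group had 692, 354 and 878 CPM and the second 452, 410 and 437 CPM. Libraries 1 and 3 were thus higher with Ifng and library 2 was not, and the ratio was 1.19 without library 3 and 1.78 without library 2. Cells with 1 Ifng UMI (101 cells) had 591 CPM and those with 2 to 4 (69 cells) 574 CPM, so the level did not climb further with Ifng. Median depth was 7072 UMIs in the high group and 5975 in the group without Ifng, and its part in the result was not tested beyond thinning to 1000 UMIs, which gave 1.10. Thinning leaves far fewer UMIs to count, so that value is less certain and does not settle the part of depth. Of 29 members tested in this pair, 0 were 2-fold higher (1.97% of all 7867 genes) and 1 was lower (7.22% of all genes). That gene was Vps4a, with 5 UMIs in the high group and a ratio of 0.343 (0.107 to 0.853).

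**Figure D4:**
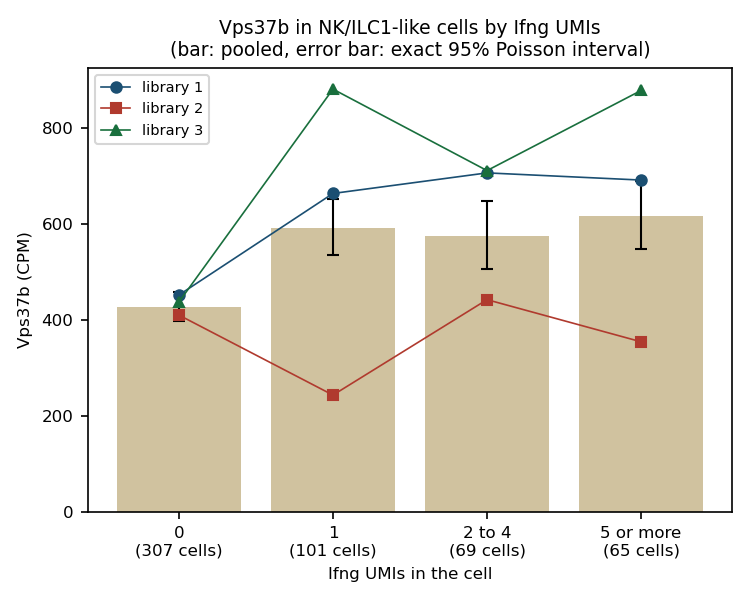
Vps37b level (CPM) in NK/ILC1-like cells grouped by the Ifng UMIs of the cell; bars are pooled, error bars exact 95% Poisson intervals, and symbols the 3 libraries. The 3 libraries sit between 410 and 452 CPM without Ifng and spread from 354 to 878 CPM at 5 or more.

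Cells of the same class were further divided by subset markers. Between 400 ILC1-gated and 68 conventional NK-gated cells, 3 of 30 members were 2-fold higher in the first (11.7% of all 8439 genes) and 0 lower (5.38%). They were Stam, Vps37c and Chmp2b, with only 3, 1 and 8 UMIs in the conventional NK gate. Their ratios were 2.31 (0.725 to 11.8), 4.62 (0.747 to 191) and 2.36 (1.15 to 5.64). Vps37b was 507 and 356 CPM in these subsets, and in library 2 it was 317 and 339 CPM, the other way round. Between 140 pericentral-gated and 392 periportal-gated endothelial cells, 0 of 29 members passed 2-fold, where 4.02% of all 9283 genes were higher and 4.28% lower.

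Neighbouring pathways were described from lists drawn up with the members. Their counts stand beside the shares of all genes given above: 12.9% higher and 36.7% lower in Kupffer-like, 20.2% and 33.3% in pDC-like, 16.2% and 40% in monocyte-like and 19.6% and 31.1% in NK/ILC1-like cells. With 6 to 20 genes a list, nothing particular to a list is read from them. In the WASH complex, which builds actin on retromer domains, 1 of 6 genes was higher and 2 lower in both monocyte-like and NK/ILC1-like cells, 1 was higher in Kupffer-like and 1 lower in pDC-like cells. Washc5 had ratios of 0.22 (0.137 to 0.34) in NK/ILC1-like and 0.358 in pDC-like cells, and Washc4 was at 0.323 (0.262 to 0.395) in NK/ILC1-like cells. Of 14 commander and retriever genes tested, which recycle cargo beside retromer, 4 were higher and 1 lower in pDC-like cells. Commd6 was at 4.47 (3.62 to 5.53), Commd4 at 3.43 (2.79 to 4.24) and Ccdc93 at 0.257 (0.147 to 0.424) there. The count was 3 higher and 1 lower in NK/ILC1-like, 1 and 1 in monocyte-like and 1 and 0 in Kupffer-like cells.

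Several sorting nexins outside the retromer set were far lower in another class than in the endothelial-like cells. Of 20 genes, 8 were lower in Kupffer-like and 10 in each of the other classes, with 4, 5, 2 and 1 higher in the order Kupffer, plasmacytoid, monocyte, NK/ILC1. Snx8 was 88.6 CPM in endothelial-like cells and 0.628 CPM (2 UMIs) in pDC-like cells, a ratio of 0.0071 (0.000857 to 0.0258). Snx24 was 45.9 CPM beside 0 UMIs in pDC-like cells, where a floor of 3 UMIs would be 0.943 CPM. Snx33 was 40.9 beside 0.314 CPM there, from 1 UMI. Snx9, which acts at clathrin pits, was 108 CPM in endothelial-like and 1.49 CPM in NK/ILC1-like cells, a ratio of 0.0138 (0.00446 to 0.0324). Snx20 ran the other way, 7.79-fold to 21.7-fold higher in the 4 classes, and was picked out after its values were seen.

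Further ESCRT genes and regulators differed by class as well. Of 10 tested, 2 were higher and 1 lower in both pDC-like and NK/ILC1-like cells, 1 and 1 in Kupffer-like and 1 and 3 in monocyte-like cells. Mvb12a, an ESCRT-I subunit, was 365 CPM in pDC-like and 45.1 CPM in endothelial-like cells, a ratio of 8.10 (7.03 to 9.38). Its paralog Mvb12b was higher in NK/ILC1-like cells, 4.12-fold (3.06 to 5.63). Stambpl1, a deubiquitinase, was 17.3-fold higher (9.81 to 33.3) in pDC-like cells. Ptpn23, an ALIX relative, was at 0.0839 (0.0101 to 0.309) in monocyte-like cells, from 2 UMIs. Of the 8 HOPS and CORVET tethering genes, 0 were higher in any class and 1 or 2 were lower, with Tgfbrap1 at 0.237 (0.173 to 0.319) in NK/ILC1-like cells.

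Among retromer partners and cargo, of 7 genes tested in Kupffer-like cells 2 were higher and 2 lower, and of 8 in the other classes 1 or 2 were higher and 1 or 2 lower. The sorting receptors divided by class. Sorl1 was 123 CPM in pDC-like, 207 in monocyte-like and 166 CPM in NK/ILC1-like cells, beside 3 UMIs (0.590 CPM) in endothelial-like cells. The NK/ILC1-like ratio was 281 (95.6 to 1366). Sort1, its relative, was 34.4 CPM in endothelial-like cells and had 0 UMIs in Kupffer-like and in NK/ILC1-like cells, where a floor of 3 UMIs would be 3.65 and 0.895 CPM. Ehd1, a recycling ATPase, was 524 CPM in Kupffer-like and 41.1 CPM in endothelial-like cells, 12.7-fold higher (10.8 to 15.1). Igf2r, the receptor for lysosomal enzymes, was 19.7 CPM in endothelial-like cells and 0.628 CPM (2 UMIs) in pDC-like cells, a ratio of 0.0319 (0.00381 to 0.118).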

How the data were processed

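Droplet 3' libraries of sorted liver non-parenchymal cells were analysed. The file deposited by the authors is 1 matrix of raw UMI counts (31053 genes, 4638 barcodes) made with Cell Ranger 3.1.0, per the file headers. The submitters' processing notes name mm10, Seurat, STAR, edgeR and Cell Ranger and give no roles. Libraries were taken from the barcode suffix. Barcodes with under 200 genes or over 20% mitochondrial UMIs (1408) and Scrublet doublets (23, called per library) were removed. Classes were gated on raw marker UMIs, counts summed per class, and ratios, shares and levels given exact 95% intervals (Python 3.11.15, scanpy 1.11.5, scipy 1.17.1). TMM factors came from edgeR 4.0.16 (R 4.3.3). The calculation was tested on simulated data that held counting error only. Such data check the arithmetic and say nothing of the spread among cells, libraries or animals. Members, lists and gates were chosen with earlier results of these data known. Every member is accounted for. Genes of other lists were named where past 3-fold, at most 4 a list, largest first; Snx20 was added after its values were seen. Gene positions are from GENCODE M21, in which all 33 rows were found. Alternatives covered filters, gate, doublets, scaling, thinning, weighting, fold, UMI minimum and each library left out. The sample sheets hold index sequences and were not used.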

Additional observations from a re-analysis of the deposited data

Results flagged for a closer look

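Barcodes removed by the filter carried member transcripts, a signal outside the main measurement. In the 1408 removed barcodes the 32 members together stood at 1685 counts per 1000000 non-mitochondrial UMIs, beside 2532 in the kept cells, and 3 UMIs would be 1.5. Vps37b was at 143 on this scale beside 174 in kept cells. Snx5 was at 307 beside 320. The 817 ungated kept cells had 2432 for all members, 212 for Vps37b and 314 for Snx5. The cell classes behind the removed barcodes were not assigned.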

How the results depend on the processing

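The 32 member ratios past 2-fold were recomputed under 12 alternatives: 337 of 384 values stayed past 2-fold, 47 fell short in the same direction and 0 reversed, and 14 ratios passed under every one. All members together moved as follows. In Kupffer-like cells the ratio of 1.03 was 1.08 with a denominator without mitochondrial, ribosomal, haemoglobin and hepatocyte genes, 1.23 under TMM, 0.949 thinned to 1000 UMIs and 1.09 with cells weighted equally. In pDC-like cells the ratio of 1.12 was 1.05 with up to 40% mitochondrial UMIs, 1.30 with that denominator, 1.23 under TMM, 1.08 thinned, 1.08 with equal cells and 0.879 without Vps37b and Snx5. In monocyte-like cells 0.975 became 1.09 with that denominator and 1.13 under TMM. In NK/ILC1-like cells 1.12 became 1.09 under the stricter gate (8 UMIs, 3 markers, 6 times the next class), 1.31 with that denominator, 1.23 under TMM, 1.08 to 1.17 with a library left out, 0.911 without Vps37b and 0.948 without Vps37b and Snx5. Leaving out these genes, and Chmp4b from ESCRT-III, was chosen after seeing the data. At 1.5-fold, 11, 21, 14 and 19 members passed in the order Kupffer, plasmacytoid, monocyte, NK/ILC1, in place of 3, 12, 6 and 11. In Kupffer-like cells 6 passed when thinned and 5 with no UMI minimum. The Vps37b ratio between Ifng groups (1.44) was 1.10 thinned, 1.25 with equal cells and 1.19 to 1.78 with a library left out. The cause of these shifts was not tested.

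Thinning left out 205 cells, 58 endothelial-like and 37 Kupffer-like among them. Thinned values rest on far fewer UMIs than the main ones and are less certain. Depth limits Hgs, Vps25 and Vps37c most, at 13, 79 and 136 UMIs in all kept cells. With 1 library per treatment and no replicates, no spread between animals is known. Ratios of classes within each library, the paired form of these comparisons, are drawn in the plot of member ratios to endothelial-like cells. In the text they are printed for Vps37b and for the VPS4 and ALIX sum in NK/ILC1-like cells. For Vps37b in monocyte-like cells only that of library 1 is printed. Elsewhere the text gives levels by library, the side of 1 on which these ratios lay, or the pooled ratio alone.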
